A study of Drosophila melanogaster with 8 samples.

Results

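Cytochrome P450 genes encode haem monooxygenases, enzymes that insert an oxygen atom into hormones, fatty acids, hydrocarbons or foreign chemicals. In insects they fall into the CYP2, CYP3, CYP4 and mitochondrial clans. Members of the CYP2 and mitochondrial clans include enzymes that make or break down the moulting hormone ecdysone, and the CYP3 and CYP4 clans hold most of the enzymes known for clearing plant toxins and insecticides, chiefly in gut, fat body and Malpighian tubule. Several detoxification genes are also known for large differences in expression between Drosophila strains.

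The genes were taken from the count tables by symbol, as every gene ID whose symbol starts with Cyp and a digit. This found 86 of 17559 gene IDs. Of these, 2 are not P450 genes but cyclophilins, which are prolyl isomerases: Cyp1 (1524 to 2030 CPM across libraries) and Cyp40 (31.4 to 36.1 CPM). They were left out of every count below, so 84 P450 genes remained, of which 82 are protein-coding and 2 (Cyp6a15Psi and Cyp6t2Psi) are annotated pseudogenes. CPM here means gene counts scaled to a common library size after TMM, a correction for differences in library composition.

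RNA-seq was made from whole wing discs, the larval sacs that form wing and thorax, of wandering Drosophila melanogaster larvae kept at 29 °C for about 5 days after egg lay. The 4 control libraries (wt 1 to wt 4) came from the cross 1151 x w1118, and the 4 CRISPR libraries (CRISPR 1 to CRISPR 4) from 1151>AntpCRISPR, in which the 1151 driver directs CRISPR against the Hox gene Antp in the adult muscle precursors, so other disc cells keep the gene. Both genotypes carry the driver, but only the second carries CRISPR transgenes, and strain background and genotype cannot be told apart. Per the labels, the submitters used wt 2, wt 3, CRISPR 1 and CRISPR 2 and did not use the other 4, and no label says whether libraries came from separate animals, so p-values measure only the spread between these libraries.

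The shallowest library was CRISPR 1, with 35076546 gene reads, and the deepest was wt 2, with 47980221. With 0 reads, a level of up to 0.0936 CPM was possible in the first and 0.0603 CPM in the second (3 reads, counting error only). The wt 2 and wt 3 libraries were the most alike (chi-square per degree of freedom 10.6, above sampling noise, and at least 42.3 in every other pair). The range of Antp RNA was 121 to 195 CPM in wt and 145 to 210 CPM in CRISPR, and since a cut gene can keep its RNA, this does not check the genotype labels. Disc epithelium markers summed to 1656 to 1900 CPM (7 genes) and adult muscle precursor markers to 237 to 336 CPM (7 genes), so the labelled tissue was present in every library. Markers of other larval tissues were uneven. The summed level of the 13 gut markers was 2124 CPM in wt 2, 2141 CPM in wt 3 and, in CRISPR 3, 1183 CPM, against 0.345 to 9.27 CPM in the other 5 libraries, where up to 8 of the 13 had no read. In wt 2, wt 3 and CRISPR 3 this sum was mostly Jon65Aiv and Jon65Aiii. Of the 13, 7 were higher in wt 2 and wt 3 than in each other library. The rest were not, and stayed at or under 0.263 CPM in every library, with no read of Jon99Cii and Mal-A1 in wt 2 and wt 3. The 8 fat body markers summed to 525 CPM in wt 2 and 535 CPM in wt 3, against 23.6 to 76.3 CPM elsewhere. Of 6 neuron markers, 5 (brp, nSyb, Syt1, cpx and Rdl) were higher in wt 2 and wt 3 than in each other library, while their sum, set by elav, was 75.8 to 82.6 CPM there and 60.8 to 78.6 CPM elsewhere. The 5 salivary gland markers summed to 5.06 to 102 CPM, highest in wt 4, and the 4 muscle markers to 71.8 to 558 CPM, highest in CRISPR 2. In such bulk samples, fewer cells of a type and less RNA per cell cannot be told apart.

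A small part of the family was on in wing discs. Taking at least 1 CPM as on, 11 of 84 P450 genes (13.1%) were on in every library, against 41.3% of all 17559 gene IDs. Another 14 reached 1 CPM in some libraries (25 with the first 11, or 29.8%, against 48.5% of all gene IDs), 52 had reads but stayed under 1 CPM in all 8, and 7 had no read in any library. Those without a read were Cyp12d1-d, Cyp308a1, Cyp313a1, Cyp4e3, Cyp6a16, Cyp6a18 and Cyp9c1. In the 5 libraries with few gut transcripts, a setting chosen after seeing the data, the count was also 11. With fewer libraries it could not be lower, so this shows only that no further gene was added. By clan, 8 of 39 CYP3 genes, 1 of 32 CYP4 genes (Cyp4e2), 1 of 9 mitochondrial genes (Cyp301a1) and 1 of 4 CYP2 genes (Cyp18a1) were on in every library. These are counts over Cyp symbols and not over whole clans: phm of the CYP2 clan and dib and sad of the mitochondrial clan, ecdysone-synthesis P450 genes with other symbols, were also on in every library.

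**Figure D1:**
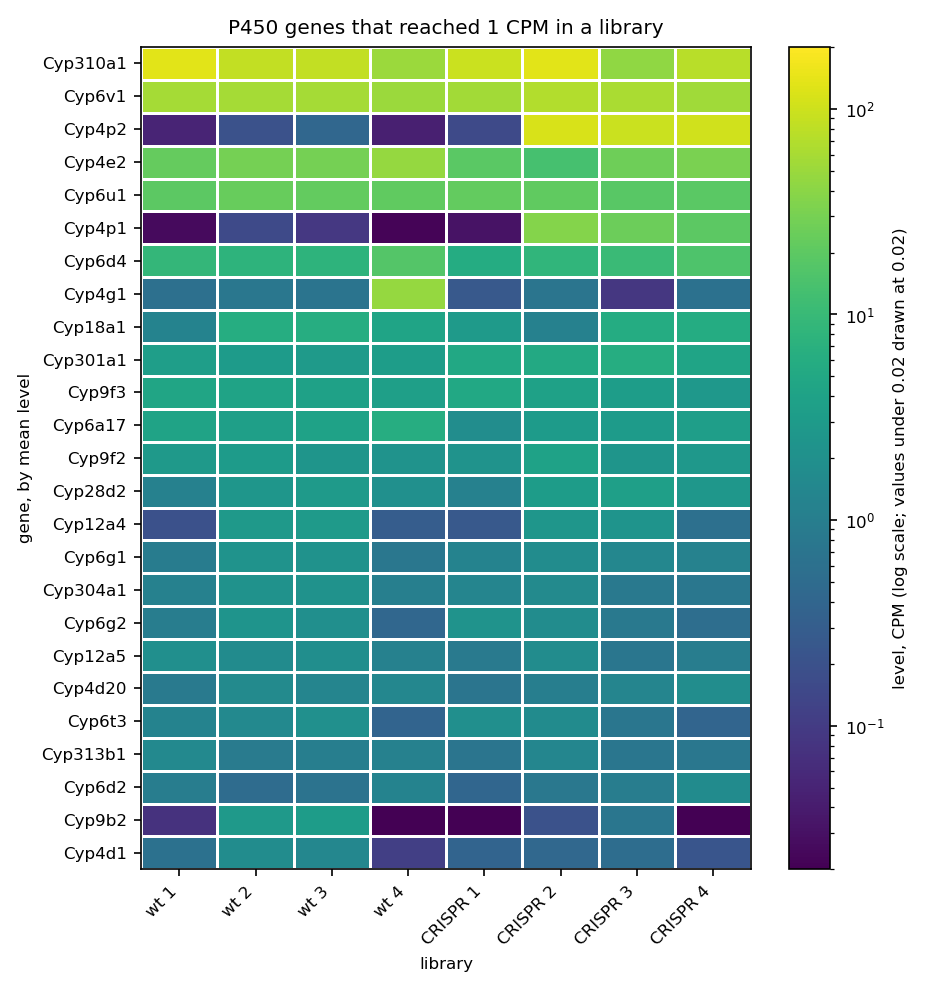
Level of the 25 P450 genes that reached 1 CPM in a library (rows, by mean level) in each of the 8 libraries (columns), on a log colour scale in CPM with values under 0.02 drawn at 0.02. Most rows keep one colour across libraries, while Cyp4p2, Cyp4p1, Cyp4g1 and Cyp9b2 go from dark (0.1 CPM or less) to light (1 CPM or more).

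Most P450 reads came from a few genes. Cyp310a1 (FBgn0032693, 2L 18651058 to 18653010, dm6), a CYP3-clan gene, had the highest mean level per length among these 84 genes, at 53.1 CPM per kb of exon. In CRISPR 3 and CRISPR 4 alone it was below Cyp4p2, with 25.7 against 53.0 and 45.2 against 58.4 CPM per kb. It stood at 134, 87.4, 86.3 and 49.4 CPM in wt 1 to wt 4, and in CRISPR 1 to CRISPR 4 it stood at 95.4, 135, 42.6 and 74.9 CPM. The genotypes overlapped over most of this range, with means of 89.2 ± 34.6 and 86.9 ± 38.5 CPM (SD, n = 4 each). Next among the genes on in every library were Cyp6v1, with 19.2 CPM per kb on the mean, and Cyp4e2, with 14.3 CPM per kb, followed by Cyp6u1 with 10.2 CPM per kb and Cyp6d4 with 5.41 CPM per kb. The other 6 lay between 1.37 (Cyp18a1) and 2.13 CPM per kb (Cyp301a1). With Cyp4p1 to Cyp4p3 and Cyp4g1 set aside, which differed widely between libraries, P450 genes summed to 203 to 291 CPM per library, and Cyp310a1, Cyp6v1, Cyp4e2 and Cyp6u1 made up 73.5% to 84.1% of that sum.

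The steadiest of these genes were Cyp6u1 and Cyp6v1. Cyp6u1 (2R 6971996 to 6975026) ranged from 18.2 to 23.1 CPM over all 8 libraries, a highest-to-lowest ratio of 1.27, and Cyp6v1 (X 20657122 to 20661425) from 50.9 to 68.1 CPM, a ratio of 1.34. Both share exon bases with another gene, Cyp6u1 with Ufsp1 on the same strand (80 bases) and Cyp6v1 with asRNA:CR45466 on the opposite strand (557 bases), and the strand setting of the counting is not given in the sources used here, so a part of either count may belong to the partner. Cyp4e2 varied more, from 13.3 CPM in CRISPR 2 to 45.9 CPM in wt 4, and Cyp6d4 from 5.68 CPM in CRISPR 1 to 17.1 CPM in wt 4. For Cyp6d4 the 3 other wt libraries lay between 7.70 and 9.05 CPM, and CRISPR 4, at 15.2 CPM, was the nearest library to wt 4.

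Cyp18a1 (FBgn0010383, X 18688538 to 18693042) encodes the 26-hydroxylase that inactivates ecdysteroids. It varied 5.77-fold, the most among the 11 genes on in every library. Its levels were 1.25, 5.93, 6.30 and 4.27 CPM in wt 1 to wt 4, and CRISPR 1 to CRISPR 4 had 2.93, 1.09, 5.83 and 5.88 CPM. Each genotype held a library near 1 CPM and a library near 6 CPM, so the groups overlapped in full. Cyp28d2, Cyp9f2 and Cyp9f3, of the CYP3 clan, ranged over 1.09 to 3.47, 2.25 to 4.04 and 2.71 to 5.09 CPM.

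**Figure D2:**
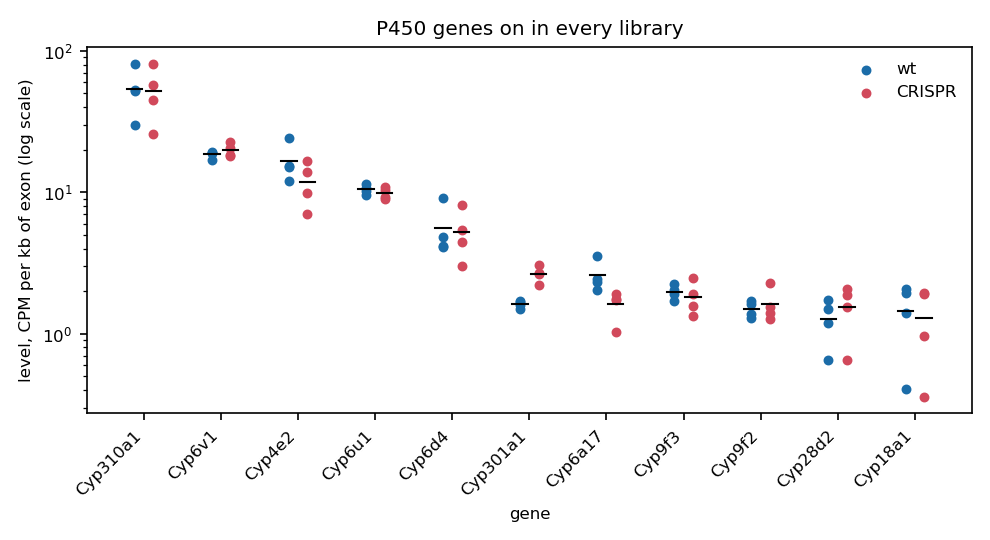
Level of the 11 P450 genes on in every library, in CPM per kb of merged exon on a log axis, with 1 point per library (blue wt, red CRISPR, 4 each) and a black line at each group mean. Cyp310a1 is highest at a mean of 53.1 CPM per kb, Cyp6u1 and Cyp6v1 have the tightest points, and for Cyp301a1 and Cyp6a17 the points of the genotypes do not overlap.

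The sharpest difference between libraries was at the Cyp4p genes, a tandem group of CYP4-clan genes (Cyp4p2, Cyp4p1 and Cyp4p3, 2R 9237512 to 9244410). Cyp4p2 (FBgn0033395) stood at 0.0498, 0.201, 0.417 and 0.0443 CPM in wt 1 to wt 4 and at 0.156 CPM in CRISPR 1, but at 116, 94.2 and 104 CPM in CRISPR 2 to CRISPR 4. Cyp4p1 (FBgn0015037) stood at 0.0249, 0.161, 0.0878 and 0.0221 CPM in wt 1 to wt 4 and 0.0312 CPM in CRISPR 1, against 36.4, 25.0 and 19.4 CPM in CRISPR 2 to CRISPR 4. CRISPR 1 thus lay with the 4 wt libraries and apart from the other 3 of its own genotype. No label says whether CRISPR 1 came from the same line or cross as those 3, which was not tested here and limits each comparison that includes it, above all the used libraries, where it is 1 of 2 CRISPR libraries. The lowest of CRISPR 2 to CRISPR 4 was 226-fold above the highest of the other 5 libraries for Cyp4p2 (13453 against 38 reads in all) and 120-fold for Cyp4p1 (3436 against 15 reads). Cyp4p3 followed at a far lower level, with 0.686, 0.366 and 0.184 CPM in CRISPR 2 to CRISPR 4 (52 reads) and at most 0.0886 CPM in the other 5 (6 reads).

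In edgeR's quasi-likelihood fit to all 8 libraries, the log2 change of Cyp4p2 was 8.74 with an SE of 1.60 and did not pass (adjusted p = 0.143). The call depended on CRISPR 1 and on the design. Without CRISPR 1 the log2 change was 9.15 (adjusted p = 0.00104), with the replicate number as a block it was 8.75 (adjusted p = 0.0138), and with DESeq2 it was 8.77 (adjusted p = 2.27e-07). Among the 4 libraries marked not used, which lack CRISPR 1, it was 10.96 (adjusted p = 1.89e-04). Cyp4p1 was not tested in the fit to all 8 libraries, because its 3 high libraries are fewer than the 4 that the filter on low counts asks for. With the filter lifted it did not pass either (SE 1.45, adjusted p = 0.151). Leaving out CRISPR 1 gave a log2 change of 8.40 (adjusted p = 0.00104). There Cyp4p1, like Cyp4p2, passed the filter only through CRISPR 2 to CRISPR 4, so a rise was the one direction either could take.

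The Cyp4p genes lie inside the span of hig (2R 9227785 to 9247249), a gene for a synaptic protein on the opposite strand, and share no exon bases with it. hig was also higher in CRISPR 2 to CRISPR 4 (2.11, 2.80 and 1.40 CPM) than in wt 1 to wt 4 (0.199 to 0.680 CPM) and CRISPR 1 (0.187 CPM), with no overlap. The other 2 genes within 15 kb did not follow this pattern: Pkn, a protein kinase gene, ranged from 150 CPM in CRISPR 4 to 239 CPM in CRISPR 1, and Tsen15 from 0.285 to 0.843 CPM. Over the genome, 6 of 8509 genes that reached 1 CPM in a library (0.0705%) were at least 10-fold higher in each of CRISPR 2 to CRISPR 4 than in each other library, a pattern chosen after its values were seen. Besides Cyp4p1 and Cyp4p2 these were CG15236, the neighbours ppk13 (an ion channel gene) and CG33509 on 2L, and the ionotropic receptor gene Ir76a on 3L. The highest level of CG15236 was 20.8 CPM, that of ppk13 55.7 CPM, that of CG33509 31.2 CPM and that of Ir76a 11.6 CPM, so the pattern was found on 3 chromosome arms. The labels give no strain background per library beyond the crosses, and its part in this pattern was not tested.

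**Figure D3:**
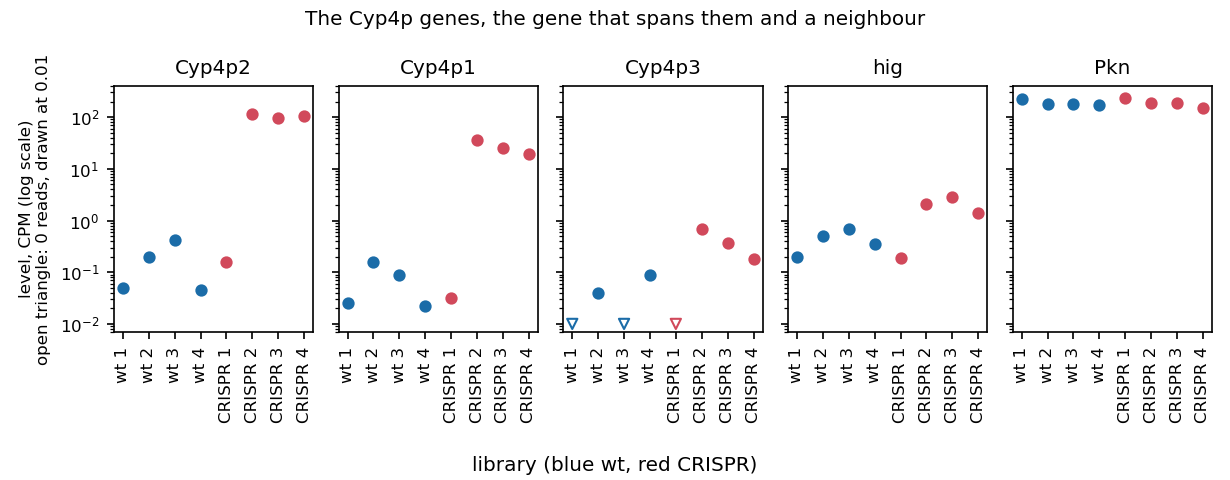
Level in each library, in CPM on a log axis, of the 3 Cyp4p genes, of hig, which spans them, and of Pkn, a neighbour (blue wt, red CRISPR, an open triangle marks 0 reads drawn at 0.01). Cyp4p2 stands at 94.2 to 116 CPM in CRISPR 2 to CRISPR 4 and at 0.0443 to 0.417 CPM in the other 5 libraries, while Pkn shows no such split.

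Near on/off differences, defined as at least 1 CPM in a library and at most 0.1 CPM in another, were found for 4 of the 25 P450 genes that reached 1 CPM, against 299 of 8509 genes (3.51%). Besides Cyp4p1 and Cyp4p2 these were Cyp4g1 and Cyp9b2. In the 5 libraries with few gut transcripts the count was 2, namely Cyp4p1 and Cyp4p2. With fewer libraries this count can only stay or fall, and the share over all genes was not computed there. Cyp4g1 dropped out because its low library, CRISPR 3 (0.0861 CPM), was set aside, while its high library, wt 4, was kept. The genes just outside the limits were Cyp4d1, from 0.111 to 1.73 CPM, and Cyp4c3, from 0 to 0.985 CPM.

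Cyp4g1 (FBgn0010019, X 467057 to 469335) encodes the decarbonylase that makes cuticular hydrocarbons in oenocytes, the hydrocarbon-producing cells under the larval epidermis. It stood at 46.0 CPM (2076 reads) in wt 4, against 0.573, 0.784 and 0.702 CPM in wt 1 to wt 3. In CRISPR 1 to CRISPR 4 the levels were 0.250, 0.711, 0.0861 and 0.621 CPM. Thus wt 4 was 58.7-fold above the next highest. The 2 oenocyte markers matched, FASN2 and FarO, were also highest in wt 4, where they summed to 5.62 CPM, against 0.125 to 0.482 CPM in the other 7 libraries, and so were the salivary gland markers (102 CPM, against at most 52.0 CPM). FarO had 4.27 CPM in wt 4 and 0 CPM in wt 1, CRISPR 1 and CRISPR 2. The part of these cells in the level of Cyp4g1 was not tested. The log2 change between genotypes over all 8 libraries was -4.84 (SE 1.63, edgeR adjusted p = 0.912), and without wt 4 it was -0.72.

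Genes that might come with gut tissue were compared with the gut markers. The wt 2, wt 3 and CRISPR 3 libraries, which held the gut transcripts, were all above each of the other 5 for 1 of 25 P450 genes, against 428 of 8509 genes (5.03%). This gene was Cyp9b2 (FBgn0015039, 2R 7130277 to 7132139), a CYP3-clan gene. Its highest levels were 3.18 CPM (wt 3), 2.81 CPM (wt 2) and 0.753 CPM (CRISPR 3). It stood at 0.203 CPM in CRISPR 2 and 0.0748 CPM in wt 1, and it had no read in wt 4, CRISPR 1 and CRISPR 4. The order of the libraries was that of the gut marker sum for the 4 highest (wt 3, wt 2, CRISPR 3 and CRISPR 2), but the ratio of wt 2 to CRISPR 3 was larger for Cyp9b2 than for the markers. The part of gut tissue in it was not tested.

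More P450 genes were highest in wt 2 and wt 3. These 2 libraries were above each of the other 6 for 6 of 25 P450 genes, against 737 of 8509 genes (8.66%), a count added after seeing the data. The genes were Cyp18a1, Cyp12a4, Cyp6g1, Cyp304a1, Cyp9b2 and Cyp4d1. No margin was asked for. Cyp18a1 had 5.93 CPM in wt 2, against 5.88 CPM in CRISPR 4 and 5.83 CPM in CRISPR 3. Cyp12a4 had 2.81 CPM in wt 2, against 2.51 CPM in CRISPR 2. For Cyp4d1 (CYP4 clan) the levels were 0.623, 1.73, 1.40 and 0.111 CPM in wt 1 to wt 4, while CRISPR 1 to CRISPR 4 had 0.375, 0.432, 0.517 and 0.230 CPM. Cyp6g1, known for insecticide resistance in strains that express it highly, stayed between 0.775 CPM (wt 4) and 2.25 CPM (wt 2) and showed no on/off difference. Of the 8 fat body markers 7, and of the 6 neuron markers 5, were also higher in wt 2 and wt 3 than in each other library, and the part of these tissues in the P450 levels was not tested.

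Cyp12a4 (FBgn0038681, 3R 19135158 to 19137136), a mitochondrial-clan gene known for resistance to the insecticide lufenuron, split the libraries into groups other than the genotypes. It stood at 2.81, 2.90, 2.51 and 2.39 CPM in wt 2, wt 3, CRISPR 2 and CRISPR 3, and at 0.199, 0.288, 0.250 and 0.575 CPM in wt 1, wt 4, CRISPR 1 and CRISPR 4. No library lay between 0.575 and 2.39 CPM, and each genotype had 2 libraries on each side. Its tandem neighbour Cyp12a5 did not split in this way, with 1.67, 1.84, 1.73 and 0.732 CPM in wt 2, wt 3, CRISPR 2 and CRISPR 3 and 1.87, 1.09, 0.874 and 0.965 CPM in the other 4. The annotation places a Bari1 transposable element at Cyp12a4, with 12 bases shared with its exons. Gut markers in CRISPR 2 summed to 9.27 CPM, against 1183 CPM in CRISPR 3, and their part in the levels of Cyp12a4 was not tested.

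**Figure D4:**
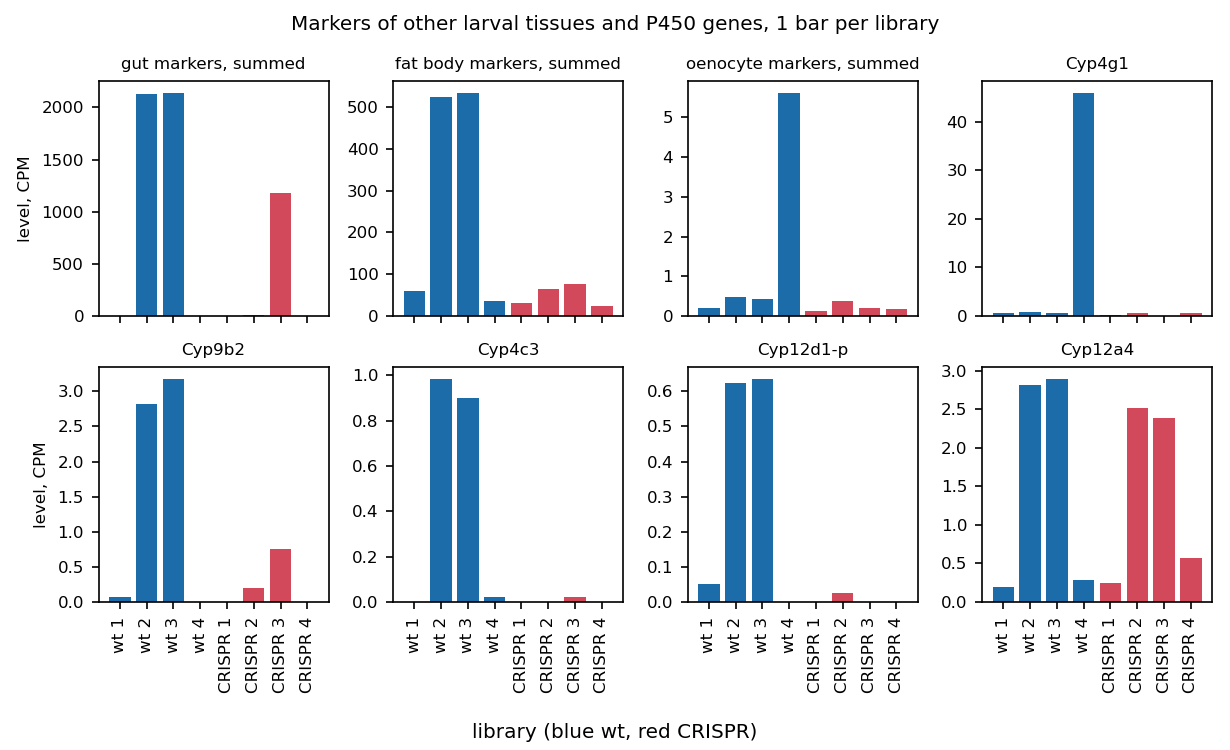
Summed level of gut, fat body and oenocyte markers and level of 5 P450 genes in each library, as bars from 0 in CPM (blue wt, red CRISPR). Cyp4g1 and the oenocyte markers are highest in wt 4 (46.0 and 5.62 CPM), Cyp9b2 is highest in the 3 libraries with gut markers, Cyp4c3 and Cyp12d1-p are high in wt 2 and wt 3, and Cyp12a4 is high in wt 2, wt 3, CRISPR 2 and CRISPR 3.

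The first genotype comparison took all 8 libraries. Of the 84 P450 genes, 33 passed the filter on low counts, and edgeR called 0 of them at an adjusted p under 0.05, against 17 of 9255 genes tested (0.184%). At an unadjusted p under 0.05 there were 4, namely Cyp4p2, Cyp301a1, Cyp4g1 and Cyp6a17, against 4.3% of all genes tested. DESeq2 called 2, Cyp4p2 and Cyp301a1, against 0.846% of genes with an adjusted p. Cyp4p1 and Cyp4p2 were called without CRISPR 1 (against 0.269% of genes) and among the libraries marked not used (0.0863%). In both settings they passed the filter only through their high CRISPR libraries, so only a rise could be called. With the replicate block Cyp4p2 alone was called (0.151%). The median log2 change of the 33 genes was -0.12, against 0.023 over all genes tested.

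The genotypes did not overlap for 2 of 25 P450 genes, against 226 of 8509 genes (2.66%). Cyp301a1 (FBgn0033753, 2R 12566185 to 12569061), a mitochondrial-clan gene needed for adult cuticle formation, lay higher in every CRISPR library, as did 1.68% of the 8509 genes. It stood at 3.31, 3.07, 2.90 and 3.23 CPM in wt 1 to wt 4, and in CRISPR 1 to CRISPR 4 it stood at 5.09, 5.23, 5.94 and 4.28 CPM. Group means came to 3.13 ± 0.185 and 5.13 ± 0.683 CPM (SD, n = 4 each). The gap between the groups was larger than the range within wt but smaller than the range within CRISPR. The log2 change of 0.71 (SE 0.18) had an adjusted p of 0.442 in edgeR (0.00291 unadjusted) and 0.0150 in DESeq2. It was 0.75 among the used libraries and 0.64 among the others, and lay between 0.64 and 0.76 when any library was left out. Exon bases are shared with Ak6 on the opposite strand (48 bases).

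Cyp6a17 (FBgn0015714, 2R 14873953 to 14875739), a CYP3-clan gene known for a part in temperature preference, lay lower in every CRISPR library, as did 0.975% of the 8509 genes. It stood at 4.24, 3.54, 3.99 and 6.11 CPM in wt 1 to wt 4, while in CRISPR 1 to CRISPR 4 its levels were 1.78, 3.05, 2.99 and 3.31 CPM. The gap between wt 2 and CRISPR 4 was 0.227 CPM, less than the spread within either group, and the log2 change of -0.68 (SE 0.27) had an edgeR adjusted p of 0.9999. Its tandem neighbour Cyp6a23 averaged 0.785 ± 0.185 CPM in wt, and its CRISPR mean was 0.493 ± 0.118 CPM (SD, n = 4 each), with a log2 change of -0.66 (edgeR adjusted p = 0.9999), and its groups overlapped, though it was lower in CRISPR in 4 of 4 same-numbered pairs (adjusted p = 0.641 with the block). The genes of this group are close relatives, so reads may be split between them. Cyp12e1, of the mitochondrial clan, had the smallest p after these (log2 -0.94, edgeR adjusted p = 0.9999).

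The second comparison took the 4 libraries the submitters used. Its control libraries, wt 2 and wt 3, were the most alike of all pairs (chi-square per degree of freedom 10.6), so their spread may understate that between controls. Of 40 P450 genes that passed the filter, edgeR called 2, against 264 of 9711 genes (2.72%), and both fell, as did 227 genes in all (2.34%). Both passed the filter only through wt 2 and wt 3, so a fall was the one direction they could take. At an unadjusted p under 0.05 there were 13 P450 genes, against 22.4% of all genes tested. The median log2 change of the 40 genes was -0.58, against 0.0040 over all genes tested. This median includes genes that passed the filter only through wt 2 and wt 3.

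Cyp4c3 (FBgn0015032, 3R 30894038 to 30900688), of the CYP4 clan, had 90 reads in wt 2 (0.985 CPM) and wt 3 (0.900 CPM) and none in CRISPR 1 and CRISPR 2. It was at least 22.5-fold lower there, taking 3 reads over the pair as the floor (edgeR adjusted p = 0.0404). In the not-used libraries it had no read in wt 1 and CRISPR 4, and 0.0221 CPM in wt 4 and 0.0215 CPM in CRISPR 3. So wt 1 and wt 4 lay with the CRISPR libraries. The gut marker sum of CRISPR 3 (1183 CPM) came without Cyp4c3, while 7 of 8 fat body and 5 of 6 neuron markers were, like Cyp4c3, highest in wt 2 and wt 3. The part of any of these tissues in the level of Cyp4c3 was not tested.

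Cyp12d1-p (2R 11117225 to 11121884), a mitochondrial-clan gene whose product metabolises insecticides, fell from 0.623 and 0.636 CPM in wt 2 and wt 3 (60 reads) to 0 and 0.0254 CPM in CRISPR 1 and CRISPR 2 (1 read). The ratio was 44.9, with a 95% exact counting interval of 7.76 to 1805 (edgeR adjusted p = 0.0484). Outside this comparison it stood at 0.0498 CPM in wt 1 and had no read in wt 4, CRISPR 3 and CRISPR 4. Its copy Cyp12d1-d had no read in any library. The 2 are near-identical copies, so how reads were shared between them is uncertain.

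Both calls were lost without wt 2 (adjusted p = 0.427 for Cyp4c3 and 0.544 for Cyp12d1-p), without wt 3 (0.398 and 0.566) and when all 8 libraries set the spread (0.103 and 0.202). Neither gene passed the filter over all 8 libraries. The number of calls was 21 of 53 P450 genes without CRISPR 1 and 25 of 46 without CRISPR 2, but 48.9% and 56.4% of all genes were called in these fits. In both of these fits a single CRISPR library stands for its group and takes its spread from wt 2 and wt 3. DESeq2 called 7, against 8.04% of all genes, which added Cyp9b2, Cyp4e2, Cyp18a1, Cyp4d1 and Cyp4p2. Cyp9b2 too passed the filter only through wt 2 and wt 3, so a fall was the one direction it could take.

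The genes with the next smallest p did not pass in edgeR. For Cyp4d1 the log2 change was -1.98 (SE 0.32, adjusted p = 0.0633). Cyp9b2 had -4.77 (SE 0.90, adjusted p = 0.0801) and rests on 8 reads in CRISPR 2. Cyp4e2 had -0.89 (SE 0.17, adjusted p = 0.0803), from 28.9 ± 0.169 to 16.1 ± 3.92 CPM (SD, n = 2 each). In the not-used libraries the levels of Cyp4e2 were 22.7 CPM (wt 1) and 45.9 CPM (wt 4), against 26.3 CPM in CRISPR 3 and 31.7 CPM in CRISPR 4, so the groups overlap. By number, Cyp4e2 was lower in CRISPR in 4 of 4 pairs over all 8 libraries, which held for 3 of 25 P450 genes (with Cyp4g1 and Cyp6a17) against 6.71% of 8509 genes, a count chosen after seeing the data. Its log2 change with the number as a block was -0.51 (SE 0.17, edgeR adjusted p = 0.508).

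**Figure D5:**
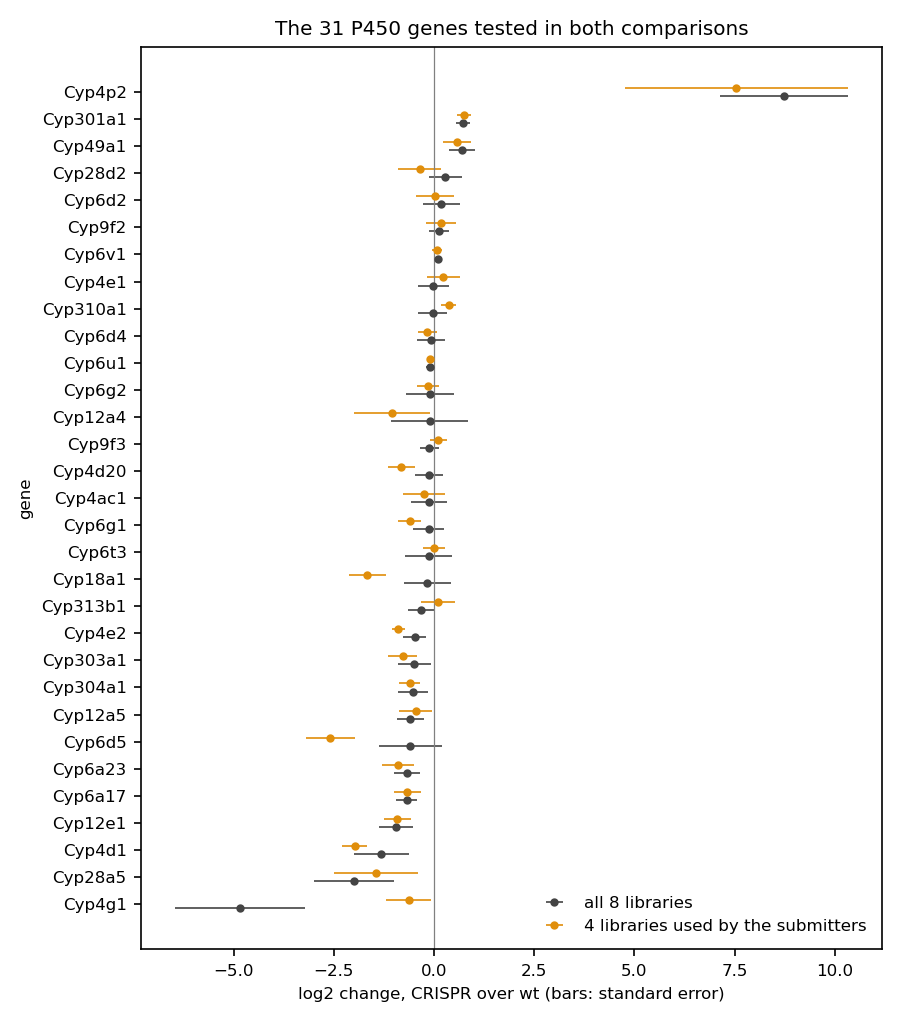
Log2 change from wt to CRISPR of the 31 P450 genes tested in both comparisons, with standard errors, in all 8 libraries (grey) and in the 4 libraries the submitters used (orange). Most genes lie within 1 of 0 in the fit to all 8 libraries. Cyp4p2 stands far to the right (8.74) and Cyp4g1 to the left (-4.84, set by wt 4), and Cyp18a1, Cyp6d5 and Cyp4d1 lie further left among the used libraries.

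Whether the genotype difference itself depended on use status was tested with an interaction term. Of 51 P450 genes, edgeR called 0, against 0 of 10094 genes (0%), and DESeq2 called 0, against 1.53% of genes. At an unadjusted p under 0.05 edgeR gave 6, against 8.24% of genes. The smallest p was that of Cyp9b2 (adjusted p = 0.467), which had 8 reads in the used CRISPR libraries and 3 in the not-used wt libraries. Next was Cyp18a1, whose log2 change was -2.66 (SE 0.89, adjusted p = 0.501) relative to that in the not-used libraries. Cyp4c3, Cyp6d5 and Cyp12a4 followed, with adjusted p-values from 0.536 to 0.603. Without CRISPR 2 the count was 2, Cyp4p2 and Cyp4p1, against 0.047% of genes.

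P450 genes often lie in tandem, and 45 of the 84 lie in 16 groups with no more than 10 kb between neighbours. In 8 groups no member reached 1 CPM, in 3 every member did, and in 5 only some did. The largest group, of 8 genes on 2R (14871366 to 14903095), held 1 member on in every library, Cyp6a17, while its other 7, among them Cyp6a8 with 4 reads in all, stayed under 1 CPM. In the Cyp9f group both members were on in every library. In the group of Cyp6g1, Cyp6g2 and Cyp6t3 all 3 reached 1 CPM. Cyp6g2 and Cyp6t3, a gene with a part in ecdysone production, were both lowest in wt 4 (0.421 and 0.376 CPM) and CRISPR 4 (0.529 and 0.391 CPM). They stood at 1.91 and 1.97 CPM in wt 3 and at 2.28 and 1.90 CPM in CRISPR 1. Cyp6g2 was highest in wt 2 (2.37 CPM), where Cyp6t3 had 1.51 CPM. In CRISPR 2 the levels were 1.73 and 1.65 CPM, in wt 1 0.972 and 1.25 CPM, and in CRISPR 3 0.818 and 0.732 CPM. Cyp6g1 and Cyp6g2 share 94 exon bases on opposite strands. Of all 84 genes, 24 share exon bases with another gene.

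Genes that work with P450 enzymes were measured beside them, from a list of 19 of which 18 were matched and 17 tested. In edgeR 0 rose and 0 fell over all 8 libraries, among the used libraries or for the interaction, against 0.184%, 2.72% and 0% of all genes called. At an unadjusted p under 0.05 there were 0, 4 and 1, against 4.3%, 22.4% and 8.24% of all genes tested. Of the electron donors, Cpr, the reductase for microsomal P450 enzymes, ranged from 85.2 to 135 CPM and Cyt-b5 from 86.0 to 118 CPM, while the mitochondrial donors Fdx1, Fdx2 and dare ranged from 3.91 to 8.71, 9.62 to 18.6 and 9.77 to 16.6 CPM. Of the ecdysone-synthesis P450 genes, whose symbols do not start with Cyp, phm (listed as phtm) ranged from 2.35 to 3.61 CPM, dib from 1.27 to 2.68 CPM, sad from 1.60 to 3.27 CPM and shd, the last step, from 0.584 to 2.25 CPM. spo stayed at or under 0.324 CPM, and spok had 7 reads in all. Among regulators of detoxification genes, cnc ranged from 170 to 263 CPM, Keap1 from 17.7 to 26.0 CPM and Hr96 from 16.6 to 21.2 CPM.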

How the data were processed

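Whole wing disc RNA-seq was analysed in 8 libraries, grouped by the titles in the labels. The deposited values are raw read counts per gene. Per the submitters' processing notes, FastQC, Trimmomatic 0.36, STAR and DESeq2 were used with build dm6, while the counting program, its strand setting and its annotation are not given there. The tables list 17559 gene IDs each, with 5 further rows that name no gene and were left out (0.955% to 1.91% of reads on no feature, 3.07% to 3.44% ambiguous, 2.22% to 4.40% not unique). Symbols were matched for 17253 IDs. Cyp6a21 is not analysed here. Coordinates and merged exon lengths are from Ensembl release BDGP6, the same assembly.

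Counts were fitted over all genes with edgeR 4.0.16 (R 4.3.3), with TMM factors, filterByExpr (minimum count 10, minimum total 15) and the two-sided quasi-likelihood test, at a Benjamini-Hochberg adjusted p under 0.05. Unless another tool is named, adjusted p-values are from edgeR. Standard errors are the log2 change over the square root of the quasi-likelihood F. The code was tested on simulated data. DESeq2 1.42.0, RLE factors, no filter, left-out libraries and a replicate block were alternatives.

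The numbers 1 to 4 pair the genotypes only in part by the data. Over 9255 genes, deviations from the group means correlated at 0.108 to 0.800 in the 4 same-numbered pairs, and 6 of 8 libraries were closest to their own number. The lowest pair, wt 2 with CRISPR 2, was below wt 2 with CRISPR 3 (0.459) and wt 1 with CRISPR 2 (0.380). CRISPR 3 was about as close to wt 2 as to wt 3 (0.462). Counts by pair and fits with the block carry this limit. The labels do not say what a number marks.

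The members, lists, comparisons and alternatives were chosen with earlier results of these data known. Named genes are the most abundant per kb among those on in every library, those called, the 5 with the smallest p per fit, those near on/off, those whose genotypes do not overlap, and those that follow the gut markers. Others, such as Cyp6a23, Cyp6g2 and Cyp6t3, were chosen after their values were seen. A planned part on protein identity was not run. Marker symbols ap, wg, btl, para and FASN3, and nvd of the partner list, had no match.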

Additional observations from a re-analysis of the deposited data

Results flagged for a closer look

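Within a genotype, 4 of 42 groups of 4 libraries had a library far from the other 3. These groups came from the named genes, many of them picked for uneven levels or small p-values, so no chance rate can be set beside this count. Cyp4g1 stood at 46.0 CPM in wt 4, against 0.573 to 0.784 CPM in the other wt libraries. Cyp6d4 stood at 17.1 CPM in wt 4, against 7.70 to 9.05 CPM. Cyp12d1-p in CRISPR 2 (0.0254 CPM) and Cyp4c3 in CRISPR 3 (0.0215 CPM) were each a single read where the other 3 CRISPR libraries had none. Such a case is flagged at any level.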

How the results depend on the processing

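The count of P450 genes called over all 8 libraries was 0, and it was 2 with DESeq2, 2 among the libraries marked not used and 1 with the replicate block. With the block and no filter, a setting chosen after seeing the data, it was 2 (against 25 of 14895 genes). It was 0 to 2 with a library left out. Among the used libraries the count of 2 became 7 with DESeq2 (against 8.04% of all genes) and 5 with no filter (against 400 of 14346 genes). It was 0 with the spread over all 8 libraries (against 5 of 9711 genes) and 0 with the filter over all 8 (against 93 of 9255 genes). With a library left out, 1 library stands for a group, and the count changed with the library left out. No block could be fitted there, as the arms share 1 number. For the interaction it was 0 to 2 with a library left out. P450 genes on in every library numbered 16 at 0.5 CPM and 8 at 2 CPM in place of 11 at 1 CPM, and near on/off genes 3 with a lower limit of 0.05 CPM. Near on/off genes numbered 2 in place of 4 without wt 2, wt 3 and CRISPR 3, where this count could only stay or fall. Genes that separate the genotypes numbered 5 in place of 2 there (Cyp4p1, Cyp4p2 and Cyp6g1 were added). With fewer libraries per genotype more genes separate by chance, and the share over all genes was not computed, so these counts cannot be compared. Genes above in wt 2, wt 3 and CRISPR 3 numbered 2 in place of 1 with RLE (Cyp18a1 was added). The cause of these changes was not tested. The block changed no other call. None of 177 alternative log2 changes changed sign. They cover, per fit, only the genes called or among the 5 with the smallest p in that fit, a choice that makes a stable sign likely. Other named genes did change sign between fits. Cyp310a1, for one, had a log2 change of -0.039 over all 8 libraries and 0.37 among the used libraries. A level of 0.1 CPM stands for at most 4.98 reads, so small differences at such levels were not detectable at this depth.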
